A study of Homo sapiens with 3 samples.

Results

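The gene set described here is the axon guidance ligands and receptors: the ephrins and Eph receptors, the semaphorins with their plexin and neuropilin receptors, the SLIT ligands with the ROBO receptors, and the netrins with the netrin receptors DCC and UNC5A to UNC5D. Members were taken by gene symbol from the deposited gene list. The symbol rule uses no measured value, but the gene set was chosen with earlier results of these data known. The symbol patterns took the numbered netrins but not the netrin-G genes NTNG1 and NTNG2, which are counted with the other pathway genes. The rule found 69 genes of the 38606 in the files. They fell into 8 ephrins, 14 Eph receptors, 20 semaphorins, 9 plexins, 2 neuropilins, 3 SLITs, 4 ROBOs, 4 netrins and 5 netrin receptors.

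These proteins were named for steering growing axons, but most also act between cells of the early embryo. Ephrins and Eph receptors are both held at the cell surface, signal on contact in both directions, and are known for sorting cells and forming boundaries. Semaphorins signal through plexins, and the secreted class mostly needs a neuropilin as the partner that binds it. SLITs repel through ROBO receptors, and netrins attract through DCC or repel through UNC5 receptors.

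The study measured RNA in single cells of micropatterned colonies of HES3, an established human embryonic stem cell line, which here carries a GFP reporter at MIXL1. Every colony was plated with 10 µM of the ROCK inhibitor Y-27632 and treated from 24 h after plating for 48 h. The BMP4 colonies received 50 ng/mL of BMP4, the CHIR colonies 6 µM of the GSK3 inhibitor CHIR99021, which activates WNT signalling, and the CHIR+Activin colonies 3 µM of CHIR99021 plus Activin A at 100 ng/mL, so the dose of CHIR99021 also differs between the last 2. Each treatment is 1 library of about 10 pooled micropatterns of 1 cell line, no untreated library was analysed here, and no test between treatments was possible.

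Counts are of unique molecular identifiers (UMIs), and a level is the UMIs of a gene summed over a set of cells, scaled to counts per 1000000 UMIs of those cells (CPM). After filtering, 9401, 7084 and 6876 cells of the BMP4, CHIR and CHIR+Activin libraries were used, with 130592423 to 185215378 UMIs per library and a median of 12623, 22919.5 and 17202 UMIs per cell. At this depth 3 UMIs correspond to 0.0162 to 0.0230 CPM. Between 8 and 12 cell barcodes were shared by each pair of libraries and 0 by all 3. Brackets hold exact 95% intervals for counting error alone, which leave out variation between colonies. The pluripotency factor POU5F1 was at 896, 1042 and 1070 CPM under BMP4, CHIR and CHIR+Activin. All 6 neural progenitor markers checked, among them SOX1 and PAX6, were under 1 CPM in every library. Of 8 neuron markers, SYT1 alone held 162 to 216 CPM of a summed 187 to 260 CPM, and NEUROD1 reached 0.146 CPM at most. Under BMP4, CHIR and CHIR+Activin, NEFL was at 10.2, 22.4 and 25.0 CPM, DCX at 7.71, 10.9 and 8.53, and STMN2 at 1.64, 4.14 and 4.38. Mesoderm markers, MESP1, TBX6 and HAND1 among them, summed to 509 CPM under BMP4, 6.23 under CHIR and 21.7 under CHIR+Activin.

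Members were expressed at similar total levels under the 3 treatments, but a few receptors and semaphorins were far higher under BMP4. The 69 members summed to 2187 CPM under BMP4, 2163 under CHIR and 2150 under CHIR+Activin. In all, 33 members reached 10 CPM in at least 1 library, 29 peaked between 1 and 10 CPM, and 7 stayed under 1 CPM everywhere. Of the 33 members compared between CHIR and BMP4, 8 were at least 2-fold lower under CHIR, against 3.09% of all genes compared, and 0 were at least 2-fold higher, against 2.85%. Between CHIR+Activin and BMP4, 5 of 33 were lower, against 2.88%, and 0 higher, against 1.84%. Between CHIR+Activin and CHIR, 1 of 27 was higher, against 0.183%, and 0 lower, against 0.0204%. Here and below a gene is compared, and counted as higher or lower, only where it has at least 10 CPM on either side. SEMA3D, SEMA6D, NRP1, SLIT3, UNC5B and UNC5C reached 10 CPM under BMP4 only, so in these pairs they could be counted as lower but not as higher. The median member ratio was -0.19 in CHIR over BMP4, -0.17 in CHIR+Activin over BMP4 and -0.05 in CHIR+Activin over CHIR on the log2 scale, beside 0.03, -0.01 and -0.05 over all genes compared. A level summed over a library cannot tell fewer expressing cells from less RNA per cell, and the levels within marker-defined cells follow the families.

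**Figure D1:**
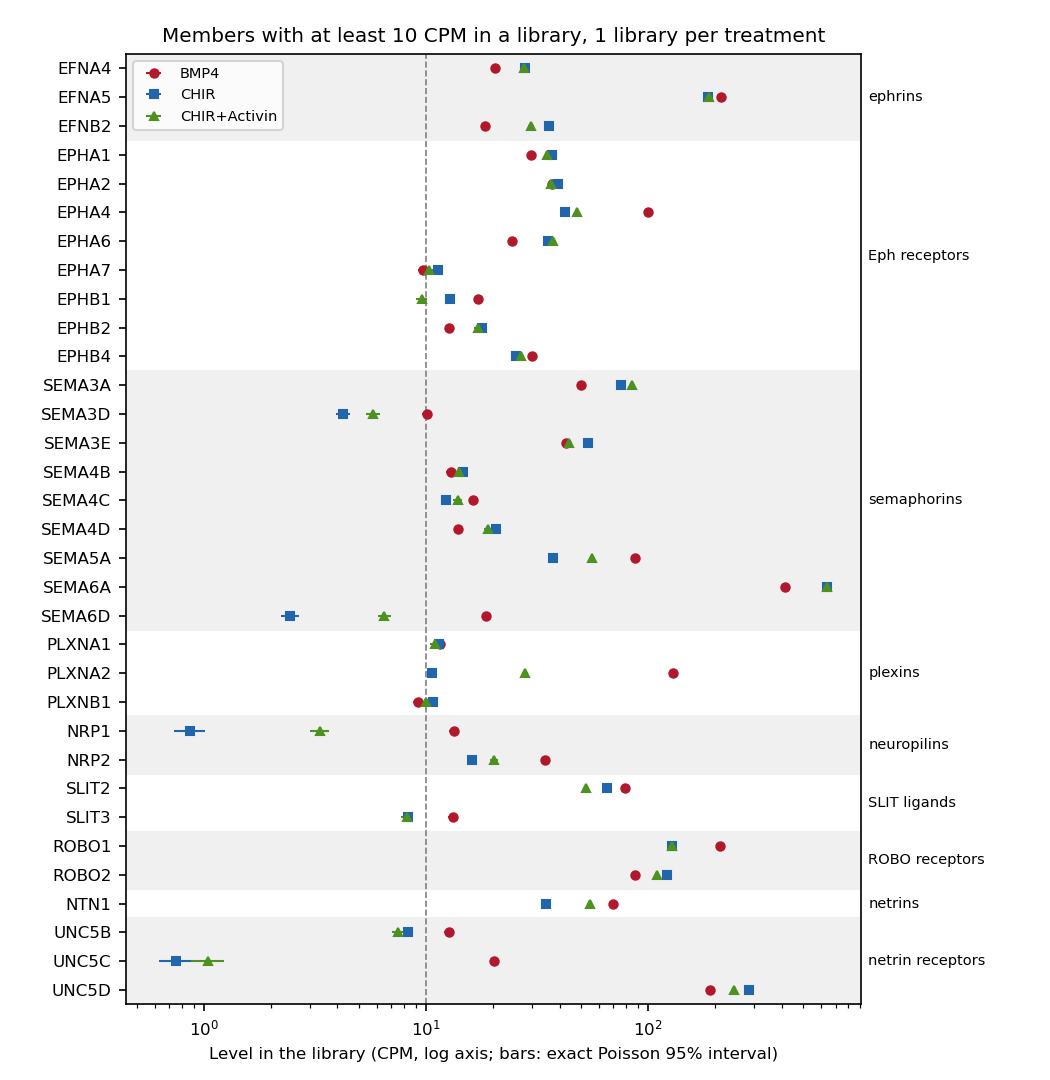
Level of the 33 members with at least 10 CPM in a library, in CPM on a log axis, with circles for BMP4, squares for CHIR and triangles for CHIR+Activin (1 library each) and exact Poisson 95% intervals as bars. Most members lie close together in the 3 libraries, while SEMA6D, PLXNA2, NRP1 and UNC5C lie far to the right under BMP4.

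Among the ephrins, 3 of 8 reached 10 CPM and none of those was 2-fold apart between libraries. EFNA5, a ligand anchored to the membrane by a lipid, was at 214, 187 and 188 CPM under BMP4, CHIR and CHIR+Activin. EFNA4, of the same class, was at 20.5, 27.8 and 27.6 CPM. The transmembrane ligand EFNB2, best known from arteries, was at 18.5, 35.9 and 29.7 CPM, so that it was 0.96 higher under CHIR than under BMP4 on the log2 scale, just inside 2-fold. EFNA2 and EFNA3 peaked just under 10 CPM, at 9.52 and 9.46. EFNA1, at 7.84 CPM under BMP4, was at 1.57 under CHIR and 1.26 under CHIR+Activin, which is a log2 ratio to BMP4 of -2.32 (-2.52 to -2.14) and -2.63 (-2.88 to -2.40).

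The Eph receptors are the tyrosine kinases that bind ephrins, and 8 of 14 reached 10 CPM. EPHA4, which binds ephrins of both classes and is known from boundaries between somites, was at 100.0, 42.4 and 48.0 CPM under BMP4, CHIR and CHIR+Activin. Its log2 ratio to BMP4 was -1.24 (-1.28 to -1.20) under CHIR and -1.06 (-1.10 to -1.02) under CHIR+Activin. No other Eph receptor above 10 CPM was 2-fold apart. EPHA1 was at 29.6, 37.0 and 35.3 CPM. EPHA2, much studied in epithelial cells, was at 37.0, 39.5 and 36.6 CPM. EPHA6 was at 24.5, 35.4 and 37.4 CPM. These receptors of the A class were thus level or slightly lower under BMP4, the opposite side from EPHA4. EPHA7 was at 9.75, 11.3 and 10.4 CPM. EPHB1 was at 17.1, 12.8 and 9.56 CPM. EPHB2 was at 12.8, 17.8 and 17.2 CPM. EPHB4, the usual partner of EFNB2 in vessels, was at 30.1, 25.6 and 26.8 CPM, with no library 2-fold from another. Among the receptors under 10 CPM, EPHA3 was lower under BMP4 (1.69 CPM) than under CHIR (5.67) and CHIR+Activin (3.88). EPHB3 was at 5.64, 1.44 and 1.83 CPM. EPHB6, whose kinase domain is inactive, was at 7.16, 2.40 and 2.91 CPM, so both of these B receptors were higher under BMP4.

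Semaphorins gave the highest summed level of any family, 703 CPM under BMP4, 905 under CHIR and 920 under CHIR+Activin, most of it from the transmembrane ligand SEMA6A. SEMA6A was at 415 CPM under BMP4, 641 under CHIR and 638 under CHIR+Activin. It was thus higher in both libraries with CHIR99021, though within 2-fold. SEMA6D, its relative, was at 18.6 CPM under BMP4, 2.44 under CHIR and 6.5 under CHIR+Activin. The log2 ratio to BMP4 was -2.93 (-3.08 to -2.79) under CHIR and -1.52 (-1.63 to -1.41) under CHIR+Activin. SEMA5A, a membrane semaphorin with thrombospondin repeats, was at 87.2, 37.3 and 56.2 CPM. Its log2 ratio to BMP4 was -1.23 (-1.27 to -1.18) under CHIR and -0.63 (-0.68 to -0.59) under CHIR+Activin, so only the first was past 2-fold.

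The secreted class 3 semaphorins did not share one pattern. SEMA3A, the classic repellent that acts through NRP1, was at 50.0 CPM under BMP4, 75.7 under CHIR and 84.6 under CHIR+Activin. SEMA3E, which can bind a plexin without a neuropilin, was at 42.7, 53.9 and 44.0 CPM. SEMA3D was at 10.2, 4.25 and 5.76 CPM, and its log2 ratio to BMP4 was -1.26 (-1.38 to -1.13) under CHIR and -0.82 (-0.95 to -0.69) under CHIR+Activin. SEMA3D therefore ran opposite to SEMA3A. In the class 4 membrane semaphorins, SEMA4B was at 12.9, 14.8 and 14.1 CPM. SEMA4C was at 16.3, 12.3 and 13.9 CPM. SEMA4D, a ligand of PLXNB1, was at 13.99, 20.8 and 19.1 CPM. None of the class 4 members was 2-fold apart in any pair. The other 11 semaphorins stayed under 10 CPM, with SEMA3C highest among them at 9.10 CPM under BMP4 and SEMA3G under 1 CPM everywhere.

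Plexins showed 1 large difference and otherwise flat levels. PLXNA2, a receptor for SEMA6A and, together with neuropilins, for secreted semaphorins, was at 129 CPM (128 to 131) under BMP4, 10.7 (10.2 to 11.2) under CHIR and 28.1 (27.2 to 29.0) under CHIR+Activin. Its log2 ratio to BMP4 was -3.60 (-3.67 to -3.53) under CHIR and -2.20 (-2.26 to -2.15) under CHIR+Activin. It was also the 1 member that differed 2-fold between CHIR+Activin and CHIR, with a log2 ratio of 1.39 (1.31 to 1.47). PLXNA1 was at 11.6, 11.5 and 11.0 CPM. PLXNB1 was at 9.27, 10.7 and 10.0 CPM. The other 6 plexins were under 10 CPM, and PLXNB3 was at 0.0324 CPM at most. The plexin family summed to 179 CPM under BMP4, 59.7 under CHIR and 74.1 under CHIR+Activin, a gap that PLXNA2 carried.

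Both neuropilins were lower without BMP4. NRP1, which also binds VEGF, was at 13.4 CPM (12.8 to 14) under BMP4, 0.864 (0.735 to 1.009) under CHIR and 3.32 (3.02 to 3.65) under CHIR+Activin. Its log2 ratio to BMP4 was -3.95 (-4.19 to -3.72) under CHIR and -2.01 (-2.16 to -1.86) under CHIR+Activin. NRP2 was at 34.4, 16.1 and 20.3 CPM, and its log2 ratio to BMP4 was -1.09 (-1.16 to -1.02) under CHIR and -0.76 (-0.83 to -0.69) under CHIR+Activin. The 2 neuropilins thus went the same way as PLXNA2, while SEMA3A, the ligand that acts through NRP1, went the other way.

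No SLIT or ROBO was 2-fold apart between libraries. SLIT2 was at 78.9, 65.7 and 52.5 CPM under BMP4, CHIR and CHIR+Activin. SLIT3 was at 13.2, 8.34 and 8.22 CPM. Both ligands were highest under BMP4. Of the receptors, ROBO1 was at 211, 128 and 128 CPM. ROBO2 was at 87.3, 122 and 109.8 CPM, so the 2 main ROBOs had opposite order between BMP4 and CHIR. ROBO4, the endothelial ROBO, was at 0.0613 CPM at most.

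In the netrin system the receptor UNC5C stood out. UNC5C, which mediates repulsion by netrin, was at 20.4 CPM (19.6 to 21.1) under BMP4, 0.750 (0.631 to 0.886) under CHIR and 1.04 (0.874 to 1.23) under CHIR+Activin. With 2795 UMIs under BMP4 against 139 and 136, it was 27.2-fold lower under CHIR and 19.6-fold lower under CHIR+Activin. The ligand NTN1 was at 69.6, 34.9 and 54.9 CPM, which put CHIR 0.99 below BMP4 on the log2 scale, just short of 2-fold. UNC5B was at 12.7, 8.34 and 7.52 CPM. UNC5D, which also binds the adhesion protein FLRT2, was at 191, 284 and 245 CPM, in the opposite order to UNC5C. DCC, the receptor for attraction, peaked at 3.33 CPM, and NTN4 at 7.92 CPM, both under CHIR+Activin. NTN3 had a single detected level, 0.00540 CPM under CHIR, which is under the level of 3 UMIs.

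The members that were lower in both libraries with CHIR99021 were EPHA4, SEMA6D, PLXNA2, NRP1 and UNC5C, in families that bind each other in part. RefSeq promoters on GRCh38.p14 were given for 59 of the 69 members and for 4 of these 5 (NRP1 had no entry), in 7 windows of 250 bases before a gene start. Windows were searched on both strands for CTTTGA (TCF/LEF, the WNT effectors), AGGTGT (T-box factors), GGCGCC (SMADs, the BMP and activin effectors) and TGTTTAC (forkhead factors). CTTTGA was in 1 of the 7 windows, against 11.2% of all 35116 windows of this length, and GGCGCC was in 1 of 7, against 16.4%. AGGTGT and TGTTTAC were in 0 of 7, against 9.57% and 2.98%. Of these, 3 are shown because they belong to the receptors with the largest gaps and to the 1 window with CTTTGA. The capitals in SEMA6D mark that match, which reads TCAAAG on the gene's strand and starts 174 bases before the gene start, and the other 2 windows hold none of the 4 motifs. The windows are chr1:208244385-208244634 on the minus strand for PLXNA2, chr4:95548974-95549223 on the minus strand for UNC5C, and chr15:47183839-47184088 on the plus strand for the first of 3 SEMA6D starts.
PLXNA2: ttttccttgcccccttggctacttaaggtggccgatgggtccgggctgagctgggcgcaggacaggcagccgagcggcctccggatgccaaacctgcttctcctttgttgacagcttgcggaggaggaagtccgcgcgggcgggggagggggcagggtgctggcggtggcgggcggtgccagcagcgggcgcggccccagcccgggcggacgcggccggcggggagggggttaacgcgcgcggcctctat
UNC5C: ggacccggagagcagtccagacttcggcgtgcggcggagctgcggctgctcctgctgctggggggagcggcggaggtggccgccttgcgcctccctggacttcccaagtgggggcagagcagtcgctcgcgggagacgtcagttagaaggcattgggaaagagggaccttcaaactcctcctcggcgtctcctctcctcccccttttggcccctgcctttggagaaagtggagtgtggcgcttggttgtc
SEMA6D: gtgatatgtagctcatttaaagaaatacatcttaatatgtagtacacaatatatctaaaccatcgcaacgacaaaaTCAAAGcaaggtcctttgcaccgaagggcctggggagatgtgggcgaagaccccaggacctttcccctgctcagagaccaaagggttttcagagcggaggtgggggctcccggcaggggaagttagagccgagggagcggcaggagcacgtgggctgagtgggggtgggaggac
A motif match is a run of letters only, and binding was not measured.

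The 4 cell markers of the comparison below split the colonies differently under each treatment. MESP1, a factor of nascent mesoderm, was at 245, 0.734 and 4.79 CPM under BMP4, CHIR and CHIR+Activin. TBXT, the primitive streak factor also known as Brachyury, was at 202, 47.3 and 51.1 CPM. SOX2, a pluripotency factor, was at 23.9, 71.2 and 86.3 CPM, and FOXA2, a factor of endoderm and anterior streak, was at 2.93, 54.6 and 40.5 CPM. A marker-positive cell is one with at least 1 UMI of the marker, which is a set of cells and not a cell type. A member with at least 10 CPM only in positive cells could be counted as higher but not as lower. For a member at that level only in negative cells the reverse held. MESP1-positive cells numbered 5590, 131 and 259, TBXT-positive cells 7018, 3859 and 3148, FOXA2-positive cells 301, 3546 and 2371, and SOX2-positive cells 1572, 4536 and 4257. Free RNA in empty BMP4 droplets held MESP1 at 170 CPM, TBXT at 184, SOX2 at 44.7 and FOXA2 at 3.95, so that SOX2 was higher there than in the BMP4 cells. The FOXA2 level there came from only 29 UMIs, and its difference from the cells was not tested. A single UMI of a marker can therefore come from free RNA, and its part in the marker sets was not tested. The sets overlapped, since 88.9% of the MESP1-positive cells under BMP4 also had TBXT. Positive cells were deeper than negative cells for every marker and library, by medians of 12953.5 against 12172 UMIs for MESP1 under BMP4 and 31390 against 22824 under CHIR, and the part of depth in the ratios was tested only by thinning.

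MESP1-positive cells under BMP4 carried more of 5 receptors and ligands that were also low under CHIR, and less of several semaphorins. Of 34 members compared, 6 were at least 2-fold higher in MESP1-positive than in MESP1-negative cells, against 1.74% of all genes, and 4 at least 2-fold lower, against 2.39%. NRP1 and UNC5C reached 10 CPM only in the positive cells, so they could not be counted as lower. SEMA3D reached it only in the negative cells and could not be counted as higher. PLXNA2 was at 191 CPM in positive and 27.3 in negative cells, a log2 ratio of 2.81 (2.73 to 2.89). NRP1 was at 19.7 against 2.99 CPM, a ratio of 2.71 (2.48 to 2.96). UNC5C was at 29.2 against 5.81 CPM, a ratio of 2.33 (2.15 to 2.51), or 1.72 with cells of another of the 4 markers left out. These 3 receptors for semaphorins and netrins therefore had most of their BMP4 signal in cells with MESP1. The netrin ligand NTN1 was at 96.5 against 25.2 CPM (1.94, 1.85 to 2.02). EPHA4 was at 137 against 38.7 CPM (1.83, 1.76 to 1.90). SEMA5A was at 110.3 against 49.2 CPM (1.17, 1.10 to 1.23). On the lower side stood 3 semaphorins and an Eph receptor. SEMA6A was at 264 against 665 CPM (-1.33, -1.36 to -1.31). SEMA3A was at 30.1 against 82.8 CPM (-1.46, -1.53 to -1.39). SEMA3D was at 5.85 against 17.3 CPM (-1.56, -1.72 to -1.40), and EPHB1 at 12.2 against 25.1 CPM (-1.03, -1.15 to -0.92). Ligand SEMA6A and its receptor PLXNA2 were thus on opposite sides of the MESP1 split.

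CHIR+Activin cells with MESP1 were few but had a like profile. Of 33 members, 9 were at least 2-fold higher in the 259 positive cells, against 2.70% of all genes, and 1 was lower, against 0.811%. NRP1, SEMA6D, NTN4 and SLIT3 reached 10 CPM only in the positive cells, so they could not be counted as lower. PLXNA2 was at 184 against 21.3 CPM, a log2 ratio of 3.12 (3.01 to 3.22). NRP1 was at 30.9 against 2.13 CPM, a ratio of 3.86 (3.57 to 4.15). NTN1 was at 229 against 47.3 CPM (2.27, 2.18 to 2.36). All 3 were also among the members higher with MESP1 under BMP4. SEMA6D was at 26.3 against 5.64 CPM (2.22, 1.95 to 2.48). SEMA5A was at 179 against 50.8 CPM (1.82, 1.72 to 1.92). EPHA4 was at 147 against 43.7 CPM (1.75, 1.64 to 1.85). SEMA6D passed 2-fold here and not under BMP4, and so did NTN4, NRP2 and SLIT3. NTN4, a laminin-related netrin, was at 25.9 against 7.14 CPM (1.86, 1.60 to 2.12). NRP2 was at 63.4 against 18.4 CPM (1.79, 1.62 to 1.95). SLIT3 was at 17.3 against 7.82 CPM (1.14, 0.82 to 1.45). Those differences between libraries were not tested. SEMA6A was the lower member, at 296 against 653 CPM (-1.14, -1.21 to -1.07). UNC5C stayed under 10 CPM on both sides, at 8.46 against 0.719 CPM from 46 and 90 UMIs.

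Across the 29 members with at least 10 CPM in both libraries, the MESP1 ratios under BMP4 and CHIR+Activin had a Pearson r of 0.88 and the same sign for 25, as a description over genes that are not independent. The levels in MESP1-positive cells of the 2 libraries lay side by side for PLXNA2 (191 and 184 CPM) and EPHA4 (137 and 147 CPM). They were further apart for UNC5C (29.2 and 8.46 CPM), NTN1 (96.5 and 229 CPM) and NRP1 (19.7 and 30.9 CPM). The median MESP1 count per positive cell was 5 UMIs under BMP4 and 1 under CHIR+Activin, so the 2 sets of cells were not selected alike.

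**Figure D2:**
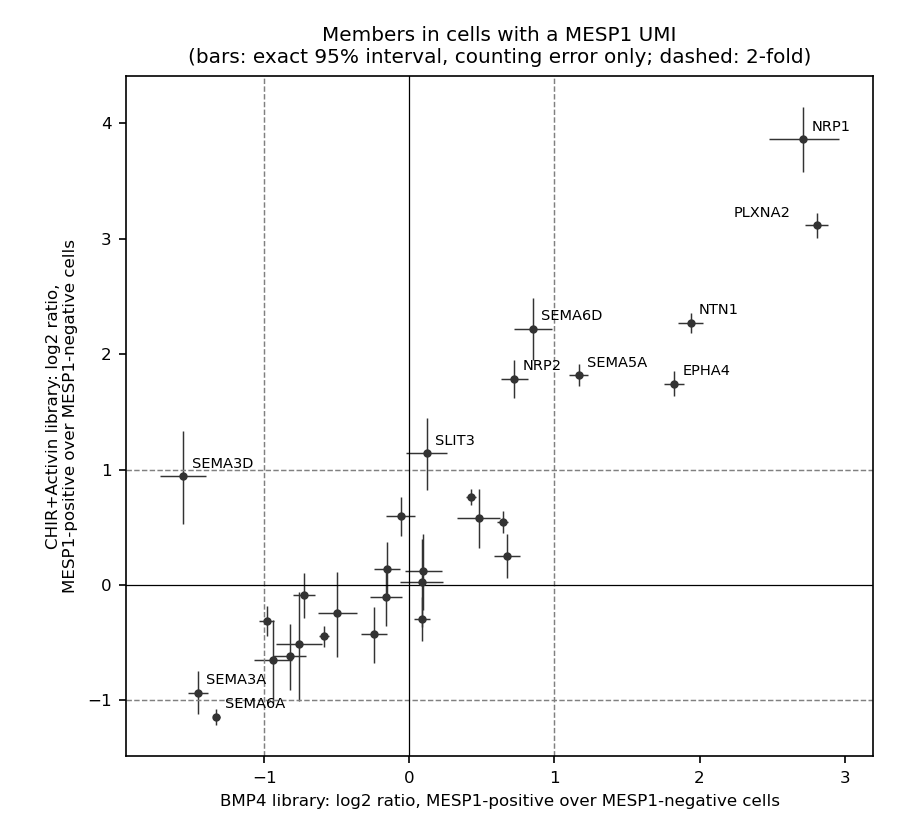
Each point is 1 of the 29 members with at least 10 CPM on a side in both libraries, with the log2 ratio of its level in MESP1-positive over MESP1-negative cells under BMP4 (x axis) and CHIR+Activin (y axis), exact 95% intervals as bars and 2-fold as dashed lines. NRP1 and PLXNA2 lie at the top right, SEMA3A and SEMA6A at the bottom left, and SEMA3D lies at -1.56 on the x axis and 0.94 on the y axis.

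In the CHIR library MESP1-positive cells numbered 131, and the ratios were small. Of 28 members, 0 were 2-fold apart in either direction, against 0.111% of all genes. PLXNA2 was at 20.1 CPM in positive and 10.4 in negative cells, from 90 UMIs in the positive cells, with a log2 ratio of 0.94 (0.62 to 1.25). NTN1 was at 60.1 against 34.3 CPM (0.81, 0.63 to 0.98), and EPHA4 at 58.7 against 42.0 CPM (0.48, 0.30 to 0.66). EFNA5 was at 228 against 186 CPM (0.29, 0.20 to 0.38) and SEMA5A at 45.6 against 37.1 CPM (0.30, 0.09 to 0.50). The intervals of these 5 members lay above 0, and of the 5 only that of PLXNA2 reached past 2-fold. Across 27 members the MESP1 ratios under CHIR had a Pearson r of 0.74 with those under BMP4 and of 0.76 with those under CHIR+Activin, with the same sign for 18 in each case. Of the 7 mesoderm markers in the list beside MESP1, 6 were under 1 CPM in this library, TBX6 at 0.966 and APLNR at 0.999 among them, and PDGFRA was at 2.82 CPM.

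TBXT split the members under BMP4 along partly the same lines as MESP1. Under BMP4, 4 of 34 members were at least 2-fold higher with TBXT, against 1.04% of all genes, and 6 were lower, against 2.25%. Of the lower members, SEMA3D, SEMA3C and EFNA1 reached 10 CPM only in TBXT-negative cells, so they could not be counted as higher. NTN1 was at 81.3 against 26.9 CPM (1.60, 1.49 to 1.70). EPHA4 was at 115 against 45.7 CPM (1.33, 1.25 to 1.41). PLXNA2 was at 147 against 66.3 CPM (1.15, 1.08 to 1.21). EPHA2, at 41.6 against 20.4 CPM (1.02, 0.90 to 1.15), joined the list at its edge. The lower members included the secreted semaphorins SEMA3A, SEMA3C and SEMA3D. SEMA3D was at 6.19 against 24.6 CPM (-1.99, -2.14 to -1.83). SEMA3C was at 6.89 against 17.1 CPM (-1.31, -1.48 to -1.15). EFNA1 was at 5.93 against 14.8 CPM (-1.32, -1.50 to -1.14). EPHB1, at 13.2 against 31.4 CPM (-1.25, -1.37 to -1.13), was also lower, as were ROBO2, with a ratio of -1.10, and SEMA3A, with -1.02. Beside their MESP1 ratios, those of NTN1, EPHA4, PLXNA2 and SEMA3A were smaller in size by TBXT, while those of SEMA3D, SEMA3C, EFNA1 and EPHB1 were larger. With cells of another of the 4 markers left out, the PLXNA2 ratio was -0.016, close to 0, and EPHA4, SEMA3A and ROBO2 were within 2-fold, at 0.84, -0.39 and -0.77.

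In the libraries with CHIR99021, PLXNA2 and NTN1 were the members 2-fold apart by TBXT. Under CHIR, 1 of 27 members was 2-fold apart, against 0.152% of all genes, namely PLXNA2 at 13.9 against 5.47 CPM (1.35, 1.19 to 1.51). PLXNA2 reached 10 CPM there only in TBXT-positive cells, so it could not be counted as lower. Under CHIR+Activin, 2 of 27 were higher, against 0.634%, and 0 lower, against 0.153%. These were PLXNA2 at 43.2 against 12.5 CPM (1.79, 1.68 to 1.91) and NTN1 at 80.2 against 28.8 CPM (1.48, 1.40 to 1.55). NTN1 under CHIR stood at 42.4 against 22.9 CPM, a ratio of 0.89 (0.81 to 0.97) that fell short of 2-fold. Where at least 2 TBXT UMIs were asked for, the counts became 2 under CHIR and 5 under CHIR+Activin. The share of all genes was not taken at that setting, so these counts are not read as a result about the members.

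SOX2-positive cells carried less of several members that were higher with MESP1 under BMP4 and CHIR+Activin. Under BMP4, 2 of 31 members were higher with SOX2, against 1.68% of all genes, and 6 were lower, against 1.98%. Of the lower members, UNC5C, NRP1 and SEMA6D reached 10 CPM only in SOX2-negative cells, so they could not be counted as higher. The higher members were SEMA3A, at 87.6 against 40.0 CPM (1.13, 1.06 to 1.20), and ROBO2, at 146 against 71.7 CPM (1.03, 0.98 to 1.09). UNC5C was at 5.92 against 24.2 CPM (-2.03, -2.27 to -1.81). NRP1 was at 4.35 against 15.8 CPM (-1.86, -2.13 to -1.59). The others below were PLXNA2 at 46.6 against 151 CPM (-1.70), SEMA6D at 7.87 against 21.5 CPM (-1.45), NTN1 at 34.0 against 79.0 CPM (-1.22) and EPHA4 at 51.1 against 113 CPM (-1.14). Of these 6, UNC5C, NRP1, PLXNA2 and EPHA4 are receptors. Under CHIR+Activin, 6 of 31 were lower with SOX2, against 0.992%, and 0 higher, against 0.153%. PLXNA2 was at 11.7 against 60.6 CPM (-2.37, -2.48 to -2.27). NTN1 was at 30.1 against 104 CPM (-1.79, -1.86 to -1.72). SEMA6D, EPHA4, SEMA5A and EPHA6 followed with ratios of -1.43, -1.11, -1.08 and -1.07. Of these, SEMA6D reached 10 CPM only in SOX2-negative cells, so it could not be counted as higher. Only EPHA6, at 27.4 against 57.5 CPM, was not among the members higher with MESP1 in that library. Under CHIR, 1 of 30 members was 2-fold apart, against 0.243%, and it was again PLXNA2, at 7.69 in SOX2-positive and 17.9 in SOX2-negative cells (-1.22, -1.35 to -1.09). PLXNA2 reached 10 CPM there only in SOX2-negative cells, so it could not be counted as higher. With doublets removed, the UNC5C ratio under BMP4 was -2.66, and with at least 2 SOX2 UMIs those of NRP1, PLXNA2 and SEMA6D were -2.78, -2.61 and -2.13. The 6 members under CHIR+Activin became 2 with SOX2 read after thinning to 10000 UMIs, a setting for which the share of all genes was not taken. With cells of another marker left out, UNC5C under BMP4 was at -3.54, PLXNA2 at -2.51, SEMA6D at -2.80 and NRP1 at -1.21, whereas EPHA4 (-0.33), NTN1 (-0.28), SEMA3A (0.55) and ROBO2 (0.83) were within 2-fold. In the same cells PLXNA2 was within 2-fold under CHIR, at -0.49, as were EPHA4 (-0.64), EPHA6 (-0.82), SEMA5A (-0.69) and SEMA6D (-0.59) under CHIR+Activin, where NTN1 was at -1.001.

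FOXA2 went with few members in any library. Under BMP4, 3 of 35 were 2-fold apart, against 0.789% of all genes, and all 3 were lower in the 301 positive cells: UNC5C at 6.25 against 21.0 CPM (-1.75, -2.27 to -1.27), SEMA3D at 4.11 against 10.4 CPM (-1.34, -2.00 to -0.75) and NRP1 at 5.71 against 13.7 CPM (-1.26, -1.81 to -0.76). They rested on 35, 23 and 32 UMIs in the positive cells. All 3 reached 10 CPM only in FOXA2-negative cells, so they could not be counted as higher. Under CHIR, 1 of 31 was 2-fold apart, against 0.254%, which was PLXNA2 at 14.6 against 5.82 CPM (1.33, 1.18 to 1.48). PLXNA2 reached 10 CPM there only in FOXA2-positive cells, so it could not be counted as lower. Under CHIR+Activin, 0 of 27 were 2-fold apart, against 0.329%, with PLXNA2 at 37.0 against 22.6 CPM (0.71, 0.62 to 0.81). PLXNA2 therefore went with FOXA2 in the libraries with CHIR99021 and was lower with FOXA2 under BMP4, at 72.7 against 132 CPM.

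**Figure D3:**
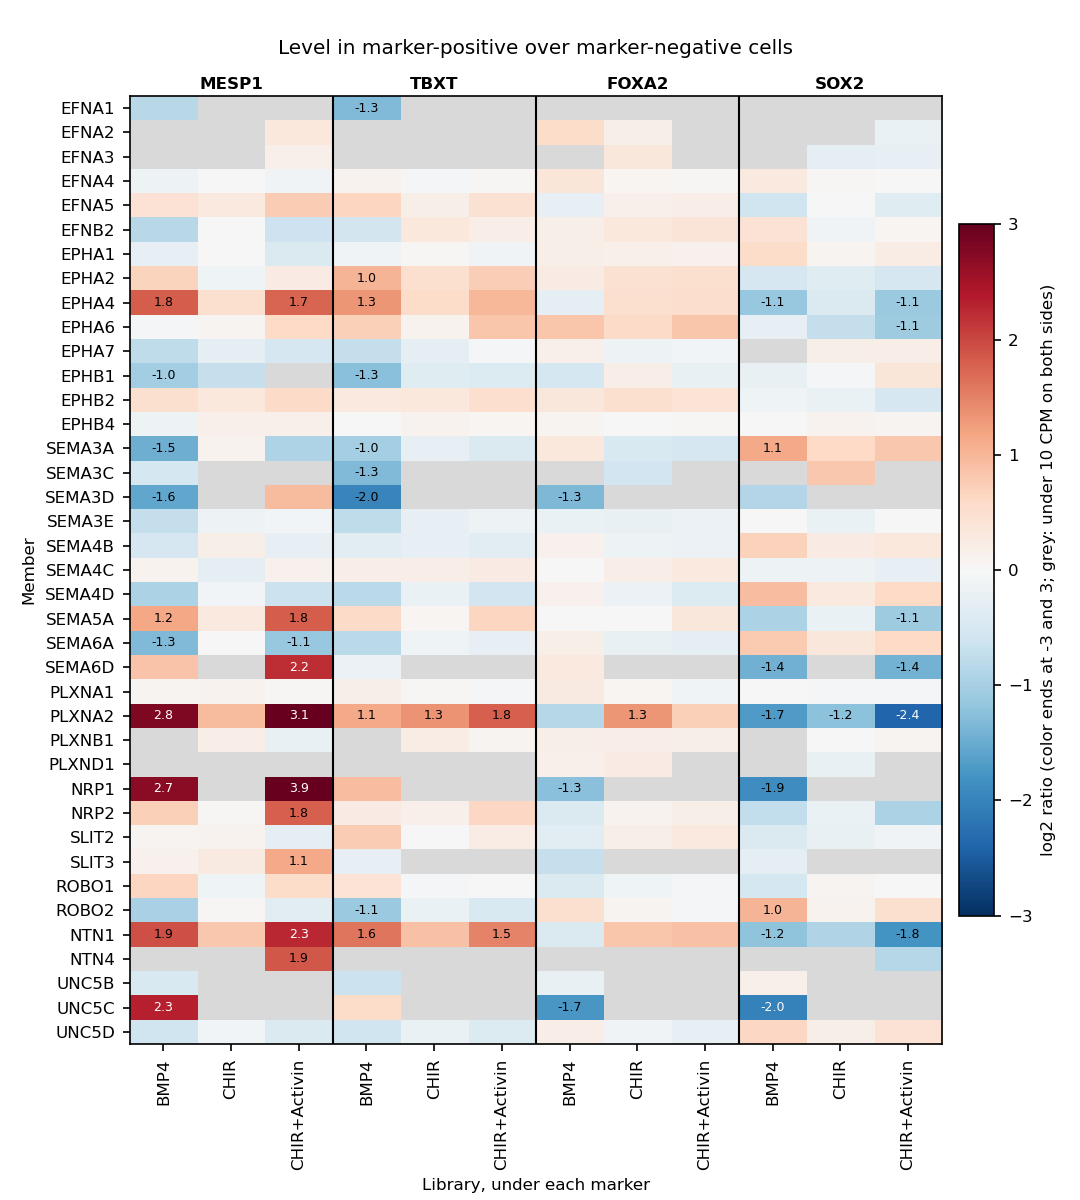
Each row is a member and each column a library under 1 of 4 markers, colored by the log2 ratio of the level in marker-positive over marker-negative cells, with the value printed where it is at least 1 in size and grey where the member had under 10 CPM on both sides. PLXNA2 and NTN1 are red under MESP1 and TBXT and blue under SOX2, and the CHIR columns are the palest.

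The gap between treatments was also taken within cells that shared a marker. Among TBXT-positive cells, UNC5C was at 21.9 CPM under BMP4, 0.657 under CHIR and 1.57 under CHIR+Activin. PLXNA2 was at 147, 13.9 and 43.2 CPM in the same cells. NRP1 was at 14.9, 0.797 and 4.73 CPM, and SEMA6D at 18.1, 2.75 and 8.59 CPM. For all 4, both libraries with CHIR99021 remained at least 2-fold under BMP4 among TBXT-positive cells. Where at least 2 TBXT UMIs were asked for, the CHIR+Activin ratio of SEMA6D was -0.76, within 2-fold, and those of UNC5C, PLXNA2 and NRP1 were -3.50, -1.42 and -1.19. EPHA4, at 115, 48.4 and 63.7 CPM, was 2-fold lower under CHIR (-1.25) but not under CHIR+Activin (-0.85). SEMA3D, at 6.19, 4.69 and 5.94 CPM, was within 2-fold in both.

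In SOX2-positive cells the ratios had the same sign, from lower levels. UNC5C was at 5.92 CPM under BMP4, 0.672 under CHIR and 0.518 under CHIR+Activin, with log2 ratios of -3.14 and -3.51. PLXNA2 was at 46.6, 7.69 and 11.7 CPM, with ratios of -2.60 and -1.99. NRP1 was at 4.35, 0.756 and 1.52 CPM, with ratios of -2.52 and -1.52. SEMA6D had ratios of -1.66 and -0.92, so under CHIR+Activin it was within 2-fold. UNC5C, NRP1 and SEMA6D were under 10 CPM in these cells of every library. Where at least 2 SOX2 UMIs were asked for, NRP1 had ratios of -1.63 and -0.89, PLXNA2 -1.99 and -1.52, and UNC5C -2.80 and -3.21, so NRP1 under CHIR+Activin was then within 2-fold. SEMA6D then had ratios of -0.98 and -0.33, within 2-fold in both. The median SOX2 count per positive cell was 1 UMI under BMP4 and 2 in the other libraries, and the part of free SOX2 RNA in choosing these cells was not tested. EPHA4 in those cells was at 51.1, 38.6 and 34.6 CPM, with ratios of -0.41 and -0.56, within 2-fold in both.

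Leaving out every MESP1-positive cell, a comparison added after the values were seen, separated the members further. EPHA4 then had a log2 ratio to BMP4 of 0.12 under CHIR and 0.18 under CHIR+Activin, which reverses its direction. PLXNA2 moved to -1.39 under CHIR and -0.36 under CHIR+Activin, and NRP1 to -1.84 and -0.49. UNC5C moved from -4.76 to -2.98 under CHIR and from -4.29 to -3.02 under CHIR+Activin. SEMA6D moved to -2.37 and -1.14, so that UNC5C and SEMA6D remained past 2-fold in both libraries. Without MESP1-positive cells the BMP4 levels of UNC5C (5.81 CPM) and NRP1 (2.99 CPM) were themselves under 10 CPM. SEMA5A, at -0.41, and NRP2, at -0.60, were within 2-fold under CHIR without those cells, while SEMA3D went to -2.03. The number of cells left out was 5590 under BMP4 and 131 and 259 in the other libraries, so the remaining BMP4 cells are the smaller set.

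**Figure D4:**
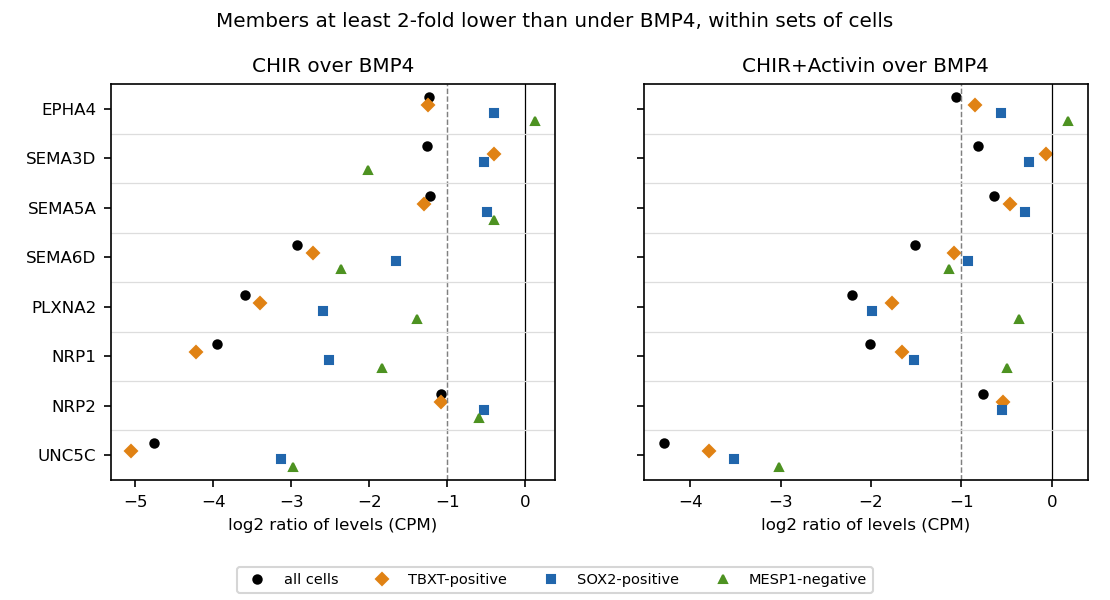
Log2 ratio of the level under CHIR (left) or CHIR+Activin (right) to that under BMP4 for the 8 members at least 2-fold lower in either, in all cells (circles), TBXT-positive cells (diamonds), SOX2-positive cells (squares) and MESP1-negative cells (triangles, drawn only where the member was 2-fold apart in that pair). UNC5C lies left of the dashed 2-fold line in all 4 sets of cells, whereas EPHA4 lies at 0.12 and 0.18 in MESP1-negative cells.

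Counted per cell, PLXNA2, UNC5C and NRP1 were detected more often with MESP1. For these shares cells were thinned to 10000 UMIs, which left out 2360, 192 and 333 shallower cells of the BMP4, CHIR and CHIR+Activin libraries. PLXNA2 was detected in 65.6% (64.2 to 67.0) of MESP1-positive and 14.8% (13.5 to 16.2) of MESP1-negative BMP4 cells, or 72.5% and 19.3% without thinning. UNC5C was detected in 19.1% (17.9 to 20.3) against 3.21% (2.58 to 3.95), or 23.7% and 4.59% without thinning. NRP1 was detected in 16.3% (15.2 to 17.4) against 1.88% (1.41 to 2.47), or 21.3% and 3.15%. A UMI can also come from free RNA, which in empty BMP4 droplets held PLXNA2 at 88.8 CPM, UNC5C at 20.3 CPM and NRP1 at 13.6 CPM, and its part in the shares was not tested. The levels in MESP1-negative cells were under these droplet levels for all 3 receptors. SEMA6A ran the other way, in 75.6% (74.3 to 76.8) of MESP1-positive and 97.3% (96.6 to 97.8) of MESP1-negative cells, or 76.2% and 96.4% without thinning.

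Shares in the other libraries followed the levels. PLXNA2 was detected in 60.1% (53.8 to 66.2) of 253 thinned MESP1-positive and 12.9% (12.1 to 13.8) of MESP1-negative CHIR+Activin cells, or 70.7% and 18.7% without thinning. In all CHIR cells it was detected in 8.26% (7.62 to 8.93), or 17.0% without thinning. UNC5C was detected in 0.580% (0.415 to 0.789) of CHIR cells and 0.871% (0.660 to 1.13) of CHIR+Activin cells, or 1.37% and 1.5% without thinning, against 13% (12.2 to 13.8) of BMP4 cells, or 16% without thinning.

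**Figure D5:**
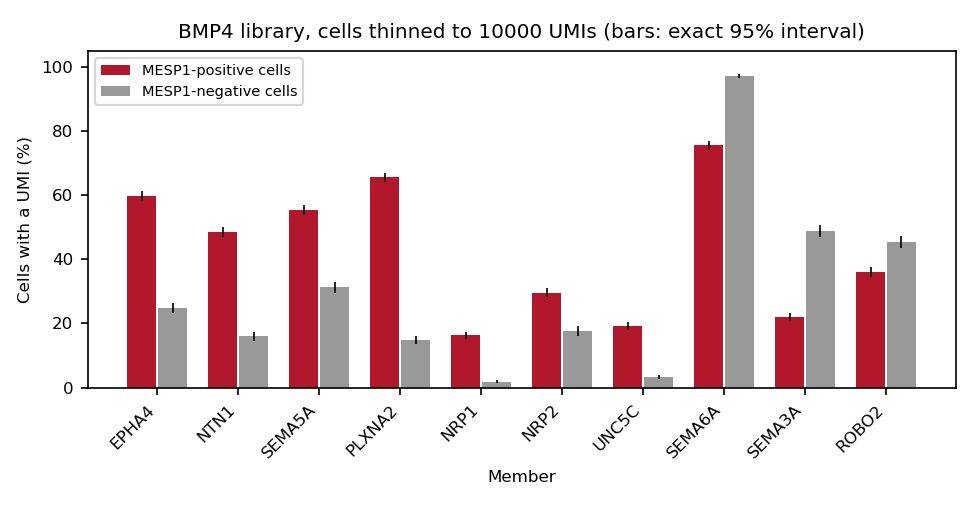
Percent of BMP4 cells with a UMI of each of 10 members after thinning to 10000 UMIs, in MESP1-positive cells (red) and MESP1-negative cells (grey), with exact 95% intervals as bars. EPHA4, NTN1, SEMA5A, PLXNA2, NRP1, NRP2 and UNC5C are found in more MESP1-positive cells, and SEMA6A, SEMA3A and ROBO2 in more MESP1-negative cells.

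Other genes of the axon guidance pathway, 44 genes for adhesion partners, adaptors and cytoskeletal effectors, were compared in the same way. Of 32 compared between CHIR and BMP4, 4 were at least 2-fold lower, against 3.09% of all genes, and 2 higher, against 2.85%. The median log2 ratio of the 32 was -0.05, beside 0.03 over all genes compared. CHL1, an adhesion protein that partners with neuropilins, was at 23.2 CPM under BMP4, 0.616 under CHIR and 5.47 under CHIR+Activin. FLRT3, a ligand of UNC5B, was at 11.7, 3.02 and 7.80 CPM. FLRT2, a ligand of UNC5D, was at 50.2, 22.0 and 25.1 CPM. NTNG1 was at 13.6, 4.83 and 5.11 CPM, so all 4 were highest under BMP4. CHL1, FLRT3 and NTNG1 reached 10 CPM under BMP4 only, so in pairs with BMP4 they could not be counted as higher. RGMA, a ligand of neogenin, was higher under CHIR, at 14.6 against 6.05 CPM. With under 10 CPM under BMP4, RGMA could not be counted as lower in that pair. DPYSL3, the other higher gene, was at 54.0 CPM under BMP4, 108.5 under CHIR and 110.8 under CHIR+Activin. Between CHIR+Activin and BMP4, 2 of 32 were lower, against 2.88% of all genes, and 3 higher, against 1.84%. Between CHIR+Activin and CHIR, 0 of 28 were lower, against 0.0204%, and 1 was higher, against 0.183%. That gene was DSCAM, a netrin receptor outside the families above, at 51.4 CPM under CHIR+Activin, 11.8 under CHIR and 17.0 under BMP4.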

How the data were processed

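RNA was counted in 3 libraries of 10x Genomics 3' single-cell sequencing, 1 per treatment. The authors deposited unnormalized UMI counts from Cell Ranger 8.0.1, per the file headers. The submitters' processing notes also name Seurat. The genome build was not given in the sources used here. Genes carry the symbols of the files. The BMP4 matrix holds all 1935344 droplets, and barcodes there needed 3739 UMIs, set at 10% of the 99th percentile over the 10000 largest barcodes. Cells with under 2000 genes or over 15% mitochondrial UMIs were removed (39 under BMP4, 622 under CHIR and 515 under CHIR+Activin). Empty droplets are the 1592061 BMP4 barcodes with up to 100 UMIs. No doublets were removed in the values reported.

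Counts were summed over cells and scaled to CPM. Levels carry exact Poisson intervals, ratios exact conditional binomial intervals and shares exact Clopper-Pearson intervals, at 95%. With 1 library per treatment no test was made, and cells were not treated as replicates. A gene was called at 2-fold with at least 10 CPM on either side. A library at 0 UMIs was set at 3 counts. Members above 10 CPM in a library were named, and members below where 2-fold apart at 3 CPM or more. Marker contrasts needed 100 cells a side and named up to 8 members by size, and the few beyond that were named after their values were seen. The members, marker genes and pathway list were chosen with earlier results of these data known. Alternatives were other scalings (TMM, median of ratios), thresholds, filters, thinning, doublet removal and marker definitions. On simulated counts with counting error alone, all 50 genes planted 4-fold apart were found in each pair. Of 50 planted 1.5-fold apart 0 were found, and 0 unchanged genes were called. That simulation checks the computation only, since it holds no variation between libraries or colonies. Python 3.11.15, numpy 2.4.6 and scipy 1.17.1 were used. Coordinates are RefSeq's, on GRCh38.p14.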

Additional observations from a re-analysis of the deposited data

Results flagged for a closer look

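In 2 cases a member was 2-fold apart in 1 library and on the opposite side, with an interval that excludes 0, in another. SEMA3D, a secreted semaphorin, was lower in MESP1-positive than in MESP1-negative cells under BMP4, with a log2 ratio of -1.56, and higher in them under CHIR+Activin, with 0.94 (0.53 to 1.33) from 58 UMIs in the positive cells. PLXNA2 was higher in FOXA2-positive than in FOXA2-negative cells under CHIR, with a log2 ratio of 1.33, and lower in them under BMP4, with -0.86 (-1.004 to -0.72). Neither difference between libraries was tested, since each treatment is 1 library and cells are not replicates.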

How the results depend on the processing

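Precision is limited by 1 library per treatment, for which no replicate check exists, and by low counts of the rarer receptors. No paired analysis was possible because each treatment has 1 library and no result comes from a test. Across TMM or median-of-ratios scaling, doublet removal, a stricter cell filter (3000 genes, 10% mitochondrial UMIs), thinning to 10000 UMIs and means over cells, all 24 named library ratios kept their sign and their side of 2-fold. The scalings shifted all genes by at most 0.05 on the log2 scale. Thresholds moved the counts of members. The share of all genes was not taken under any alternative, so the changed counts here and below are not read as results about the members. CHIR over BMP4 had 0 higher, but 1 with at least 5 CPM, 5 with at least 3 UMIs and 3 at 1.5-fold, and its 8 lower became 5 with at least 20 CPM and 4 without MESP1-positive cells. CHIR+Activin over BMP4 had 0 higher, but 4 with at least 3 UMIs and 4 at 1.5-fold, and its 5 lower became 8 with at least 5 CPM, 3 with at least 20 CPM, 8 with at least 3 UMIs and 13 at 1.5-fold. CHIR+Activin over CHIR had 1 higher, but 2 with at least 5 CPM, 3 with at least 3 UMIs and 3 at 1.5-fold, and its 0 lower became 1 with at least 3 UMIs. Of 52 named marker ratios, all kept their sign with doublets removed, the stricter filter, the marker read after thinning or means over cells, and 46 to 52 stayed past 2-fold. Of the 39 that could be taken with at least 2 marker UMIs, all stayed past 2-fold and 3 moved over 1.5-fold. With cells of another marker left out, 38 of 39 kept their sign, 26 stayed past 2-fold and 12 moved over 1.5-fold. Of 28 ratios between libraries within marker-positive cells, all kept their sign with at least 2 marker UMIs, 16 of the 19 past 2-fold stayed so and 5 moved over 1.5-fold. Counts changed with the marker definition. The count of members 2-fold apart by TBXT under CHIR went from 1 to 2 with at least 2 marker UMIs, to 2 with cells of another marker left out and to 0 with at least 20 CPM. By FOXA2 under CHIR it went from 1 to 2 with at least 2 marker UMIs and to 0 with at least 20 CPM. By SOX2 under CHIR it went from 1 to 3 with at least 2 marker UMIs, to 0 with cells of another marker left out and to 0 with at least 20 CPM. By FOXA2 under BMP4 it went from 3 to 1 with at least 20 CPM. Under CHIR+Activin it went from 2 to 5 by TBXT and from 0 to 2 by FOXA2 with at least 2 marker UMIs, from 0 to 1 by FOXA2 with cells of another marker left out, and from 6 to 2 by SOX2 both with the marker read after thinning and with cells of another marker left out. Directions reversed for EPHA4 without MESP1-positive cells, at 0.12 in CHIR over BMP4 and 0.18 in CHIR+Activin over BMP4, and the PLXNA2 ratio in the TBXT contrast under BMP4 with cells of another marker left out was close to 0, at -0.016. The causes were not tested. In 3 contrasts (FOXA2 under BMP4, MESP1 under CHIR and under CHIR+Activin) 7 alternatives in all left under 100 cells on a side and were not run.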

Other observations

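Cells of the BMP4 colonies were also divided by GATA3, HAND1 and SOX17. These 3 markers were chosen after the values were seen. GATA3, a factor of amnion and trophectoderm, was detected in 2045 BMP4 cells, of which 62.2% also had MESP1. The share with MESP1 over all BMP4 cells was 59.5%. Of 36 members, 4 were at least 2-fold higher in GATA3-positive cells, beside 1.69% of all genes, and 0 lower, beside 0.283%. EFNA1, SEMA3D and SEMA3C reached 10 CPM only in GATA3-positive cells, so they could be counted as higher but not as lower. EFNA1 was at 19.9 CPM in GATA3-positive and 3.63 in GATA3-negative cells, a log2 ratio of 2.46 (2.27 to 2.64). SEMA3D was at 25.7 against 4.74 CPM (2.44, 2.28 to 2.60), SEMA3C at 19.4 against 5.51 CPM (1.82, 1.65 to 1.98) and EPHB1 at 31.9 against 11.9 CPM (1.42, 1.30 to 1.54). These 4 genes had all been lower in TBXT-positive cells of the same library.

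HAND1, a factor of extraembryonic and lateral mesoderm, was detected in 3640 BMP4 cells, of which 81.8% also had MESP1. Of 35 members, 7 were higher with HAND1, beside 1.82% of all genes, and 2 lower, beside 1.22%. EFNA1, UNC5C, SEMA3D, NRP1 and SEMA3C reached 10 CPM only in HAND1-positive cells, so they could be counted as higher but not as lower. EFNA1, UNC5C, SEMA3D, PLXNA2, NRP1, SEMA3C and SEMA6D were the higher members, with log2 ratios of 1.95, 1.79, 1.67, 1.64, 1.62, 1.5 and 1.30. PLXNA2, NRP1 and UNC5C had also been higher with MESP1. SEMA6D had a MESP1 ratio of 0.85, within 2-fold. On the opposite side, SEMA3D had been lower with MESP1 (-1.56), and EFNA1 (-0.83) and SEMA3C (-0.54) had been lower within 2-fold. SEMA3A, at 29.4 against 65.2 CPM, and EPHA6, at 14.6 against 31.8 CPM, were lower, and SEMA3A had been lower with MESP1 too. SOX17, an endoderm factor that is also found in endothelium, was detected in 1571 BMP4 cells and went with 1 of 34 members, beside 1.12% of all genes, namely EPHA7 at 18.3 against 7.60 CPM (1.27, 1.10 to 1.43). EPHA7 reached 10 CPM only in SOX17-positive cells, so it could not be counted as lower. The 3 sets of cells overlap, and the differences between them were not tested.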
